A study of Saccharomyces cerevisiae with 8 samples.

Results

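The flocculin genes of *S. cerevisiae* and one of their regulators were followed through 8 growth conditions of 2 strains. The members are the 5 flocculin genes FLO1 (YAR050W), FLO5 (YHR211W), FLO9 (YAL063C), FLO10 (YKR102W) and FLO11 (YIR019C), and the regulator gene FLO8 (YER109C). They were picked by open reading frame (ORF) name and make up 6 of the 6152 ORFs measured. FLO1 was included because its values after 1 h differ between the strains, so that difference is described here and not tested.

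CECT10094, a flor wine yeast from Spain that tolerates ethanol, and Temohaya-MI26, an agave fermentation yeast from Mexico, were grown in GPY medium with 10 or 0% (v/v) ethanol. Early samples of both strains were taken after 1 h. Late samples with 10% ethanol were harvested in CECT10094 after 28 h and in Temohaya-MI26 after 40 h, and late samples with 0% ethanol after 10 h in both strains, so that ethanol and hours of culture cannot be told apart in the late comparison. The labels name the strains PE35M and TEMOHAYA-26, and the methods of the study put the name PE35M down to a misidentification. The labels also place the late samples within the exponential phase, whereas the methods place them after it. Each strain is 1 isolate, and no engineered allele is named for these cultures.

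Cy5-labelled cDNA of each sample was hybridised on spotted arrays beside a Cy3-labelled pool of the RNA of all samples, with no dye swap. Every value is therefore a log2 ratio of a sample to that pool: 0 means the level of the pool, and 1 means a ratio of 2 to 1. The authors reduced 3 slides per condition to 1 median, so 8 columns stand for 24 slides, no spread between slides is left in the values, and neighbours in an order of conditions cannot be called different. Ratios of different genes say nothing about which gene has more RNA. In such bulk samples, fewer cells that use a gene and less RNA in each cell cannot be told apart.

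Flocculins are large glycoproteins held in the yeast cell wall through a glycosylphosphatidylinositol (GPI) anchor. The proteins of FLO1, FLO5, FLO9 and FLO10 act as lectins that bind mannose chains on neighbouring cells and so gather cells into flocs. FLO11 encodes an adhesin for invasive and filamentous growth, for biofilms and for the floating film, or flor, of flor yeasts. FLO8 encodes a transcription factor that activates FLO1 and FLO11 downstream of cyclic AMP and protein kinase A, and the laboratory strain behind the reference annotation carries a defective copy, which RefSeq lists as a pseudogene.

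FLO1, FLO5, FLO9 and FLO10 lie near chromosome ends, where such genes are silenced in many strains. FLO1 and FLO9 stand at the right and left ends of chromosome I, FLO5 near the right end of VIII and FLO10 near the right end of XI. FLO11 lies on the right arm of chromosome IX and FLO8 on the right arm of V. FLO1, FLO5 and FLO9 are close copies with long shared repeats, so the cDNA of one can bind the spot of another, and the values of these 3 genes are uncertain as measures of single genes. Copies also differ among strains, and the gene content of these isolates was not analysed here.

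The 8 columns held values for 5612 to 6115 ORFs, with medians between -0.22 and 0.32, and the number of slides limits the precision. All 6 members were measured in each CECT10094 column and in both early Temohaya-MI26 columns. FLO1 alone had no value in the late Temohaya-MI26 columns, where 5.2% (10% ethanol) and 8.78% (0% ethanol) of all ORFs had none. A control entry named 3XSSC, a salt buffer and no gene, is called the buffer spot here. It had values between -0.59 and 0.62, and the median of the ORFs of chromosome I, home of FLO1 and FLO9, lay 0.00 to 0.80 above the median of all ORFs, most in late 0% ethanol (0.64 in CECT10094 and 0.80 in Temohaya-MI26). A control entry named Arabidopsis, also no yeast gene, had values between -0.67 and 1.958.

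**Figure D1:**
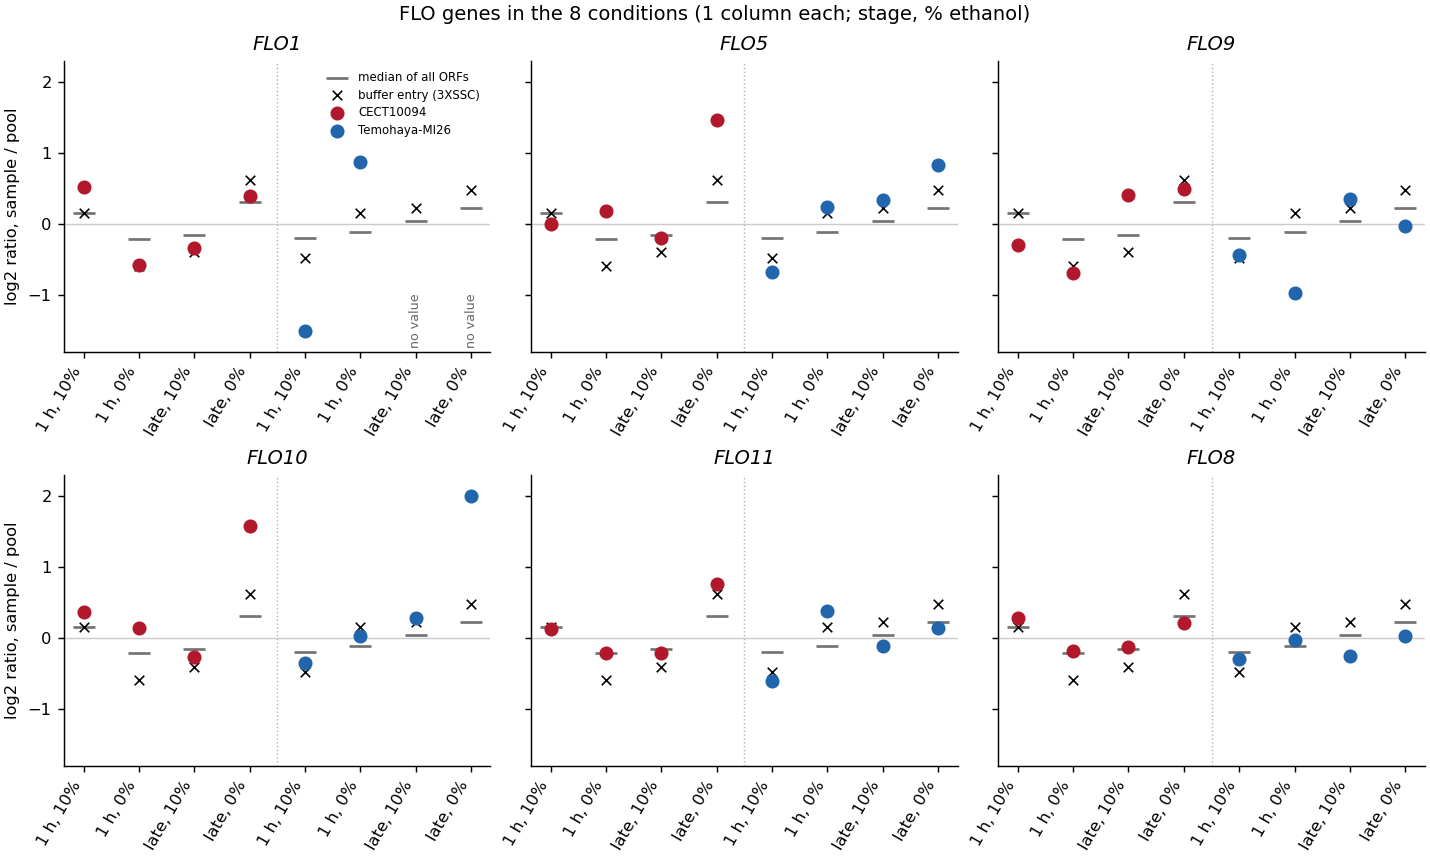
Log2 ratio of each sample to the pool (vertical axis) for the 6 FLO genes in the 8 conditions (horizontal axis, stage and % ethanol), with CECT10094 in red and Temohaya-MI26 in blue. Each point is 1 column of values, grey bars are the median of all ORFs in that column and crosses are the buffer spot. FLO1 has its lowest point, -1.51, in Temohaya-MI26 with 10% ethanol after 1 h, and FLO10 its highest points, 1.58 and 2.01, in late 0% ethanol.

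FLO1, the main flocculation gene of laboratory yeast, had opposite orders of ethanol levels in the strains after 1 h. In CECT10094 its log2 ratio was 0.52 with 10% ethanol and -0.58 with 0% ethanol. In Temohaya-MI26 it was -1.51 with 10% ethanol and 0.88 with 0% ethanol. In the same columns the Arabidopsis control had 0.52 with 10% ethanol and -0.67 with 0% ethanol in CECT10094, near the values of FLO1, and -0.15 with 10% ethanol and -0.40 with 0% ethanol in Temohaya-MI26, unlike FLO1. The part of such shifts in the FLO1 values was not tested. The lowest and the highest value of FLO1 in the series thus both came from Temohaya-MI26 after 1 h, and both CECT10094 values lay between them. The ratio with 10% ethanol in Temohaya-MI26 had 2.88% of ORFs in that column below it, and the ratio with 0% ethanol had 92.6%.

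CECT10094 minus Temohaya-MI26, FLO1 differed by 2.04 with 10% ethanol after 1 h, above 99.1% of all ORFs, and by -1.45 with 0% ethanol, above 1.19% of ORFs. As a measure of distance, limits were set around the mean of all ORFs. They lay at the number of standard deviations that holds the central 95% of a normal distribution, the cut named in the methods of the study. The study used that cut for ethanol comparisons, together with a false discovery rate correction. Here it was used without that correction, and also for differences between strains and stages. The limits mark the ends of a distribution and are no test. The upper limit was 1.56 with 10% ethanol, which 2.53% of ORFs passed (2.66% passed the lower limit), and the lower limit was -1.08 with 0% ethanol, which 2.86% of ORFs passed. FLO1 lay beyond both limits, and the other 5 members beyond neither. FLO1 was chosen for these values, so they are not read against those shares. With 10% ethanol after 1 h the other members were 0.14 (FLO9) to 0.74 (FLO11) higher in CECT10094, beside a median of 0.31 over all ORFs and 0.64 for the buffer spot. With 0% ethanol they lay between -0.59 (FLO11) and 0.29 (FLO9), beside medians of -0.12 for all ORFs and -0.74 for the buffer spot.

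The late columns of CECT10094 gave FLO1 a ratio of -0.34 with 10% ethanol and 0.39 with 0% ethanol. In order, the 6 measured ratios of FLO1 were thus -1.51, -0.58, -0.34, 0.39, 0.52 and 0.88. The late order in CECT10094, lower with ethanol, was the reverse of its order after 1 h. Of the late pair, both values lay close to the buffer spot, which had -0.40 with 10% ethanol and 0.62 with 0% ethanol.

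The next annotated ORF beyond FLO1, YAR061W, is annotated as a pseudogene, a remnant that resembles FLO1. In CECT10094 after 1 h, YAR061W had 0.08 with 10% ethanol and -0.01 with 0% ethanol. In Temohaya-MI26 it had -1.16 with 10% ethanol and 1.18 with 0% ethanol, a difference of -2.34 beside the -2.39 of FLO1. Across the 6 columns in which both were measured, Pearson's r of FLO1 and YAR061W was 0.91, a description of points that share arrays, pool and scaling. YAR061W was on a list of FLO-like gene remnants, but the pairing with FLO1 was singled out after its values were seen. Its sequence resembles that of FLO1, so both spots may have bound the same cDNA, which was not tested. SWH1, an oxysterol-binding protein gene on the other side of FLO1, had ethanol differences of 0.53 in CECT10094 and -0.29 in Temohaya-MI26 after 1 h.

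**Figure D2:**
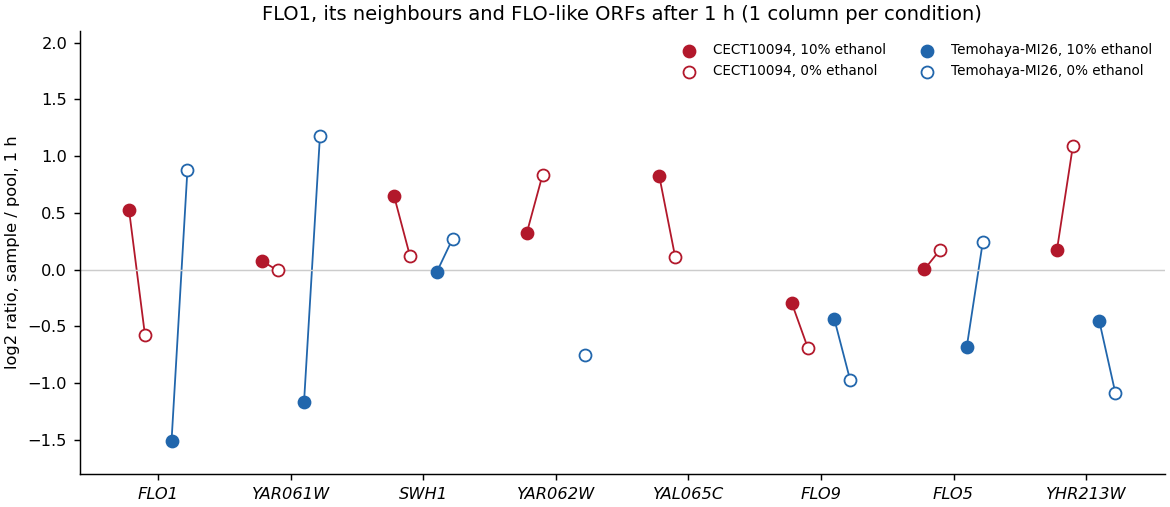
Log2 ratio to the pool after 1 h (vertical axis) for FLO1, neighbouring ORFs and FLO-like ORFs (horizontal axis), with 10% ethanol as filled and 0% ethanol as open points. CECT10094 is red and Temohaya-MI26 blue, and each point is 1 column of values. FLO1 and YAR061W have their lowest points, -1.51 and -1.16, with 10% ethanol in Temohaya-MI26, and YAL065C has no blue point.

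The 4 FLO-like remnants YAL065C, YAR061W, YAR062W and YHR213W, all related to FLO1, were measured in every CECT10094 column. In Temohaya-MI26, 2 had a value after 1 h with 10% ethanol, 3 after 1 h with 0% ethanol, and 1 in each late column. YAL065C, near FLO9, had no value in any Temohaya-MI26 column, beside 0.04 to 0.82 in CECT10094. FLO1 and the remnants thus lacked values in Temohaya-MI26 only. Over all ORFs, 0.601 to 1.74% lacked values in CECT10094 columns and 2.21 to 8.78% in Temohaya-MI26 columns. A spot that fails the quality filters and a gene that is absent or divergent in a strain cannot be told apart in these values.

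YHR213W, the remnant beyond FLO5, ran against FLO1. In CECT10094 after 1 h it had 0.17 with 10% ethanol and 1.09 with 0% ethanol, and in Temohaya-MI26 -0.46 with 10% ethanol and -1.08 with 0% ethanol. The difference between strains with 0% ethanol was 2.17 for YHR213W and 1.59 for YAR062W, past the upper limit of 0.82, and -1.19 for YAR061W, past the lower limit. Of 3 measured remnants, 2 were therefore beyond the upper and 1 beyond the lower limit, which 2.26 and 2.86% of all ORFs passed. Remnants of 1 family did not differ between strains in 1 direction.

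The close copies of FLO1 had other patterns. FLO5, a flocculin nearly identical to FLO1, had after 1 h 0.00 with 10% ethanol and 0.18 with 0% ethanol in CECT10094. In Temohaya-MI26 it had -0.68 with 10% ethanol and 0.24 with 0% ethanol. Only the direction in Temohaya-MI26 was that of FLO1, with a difference of -0.92 for FLO5 and -2.39 for FLO1. FLO9, a further flocculin of the same kind, had in CECT10094 -0.30 with 10% ethanol and -0.69 with 0% ethanol. In Temohaya-MI26 FLO9 had -0.43 with 10% ethanol and -0.97 with 0% ethanol. FLO9 was thus the member with higher ratios with ethanol in both strains after 1 h among the flocculins, by 0.39 in CECT10094 and 0.54 in Temohaya-MI26.

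The ethanol difference after 1 h, 10% minus 0%, measures the early response to ethanol. Relative to all ORFs the members were unremarkable in CECT10094, where their median was 0.36 beside 0.42 for all ORFs, and none of the 6 passed the limits of -1.53 and 2.29, which 3.53% of ORFs passed downward and 2.18% upward. In Temohaya-MI26 their median, with FLO1 among them, was -0.64 beside -0.08 for all ORFs. There, FLO1 with -2.39 passed the lower limit of -2.21, as did 3.08% of all ORFs (2.74% passed the upper limit of 2.07). FLO1 was chosen for its values in these columns, so its difference is not read against those shares. The other 5 ethanol differences in Temohaya-MI26 were -0.99 for FLO11, -0.92 for FLO5, -0.37 for FLO10, -0.27 for FLO8 and 0.54 for FLO9. The buffer spot differed by 0.74 in CECT10094 and by -0.64 in Temohaya-MI26, the same signs as FLO1, FLO11, FLO10 and FLO8, and its part in these differences was not tested.

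**Figure D3:**
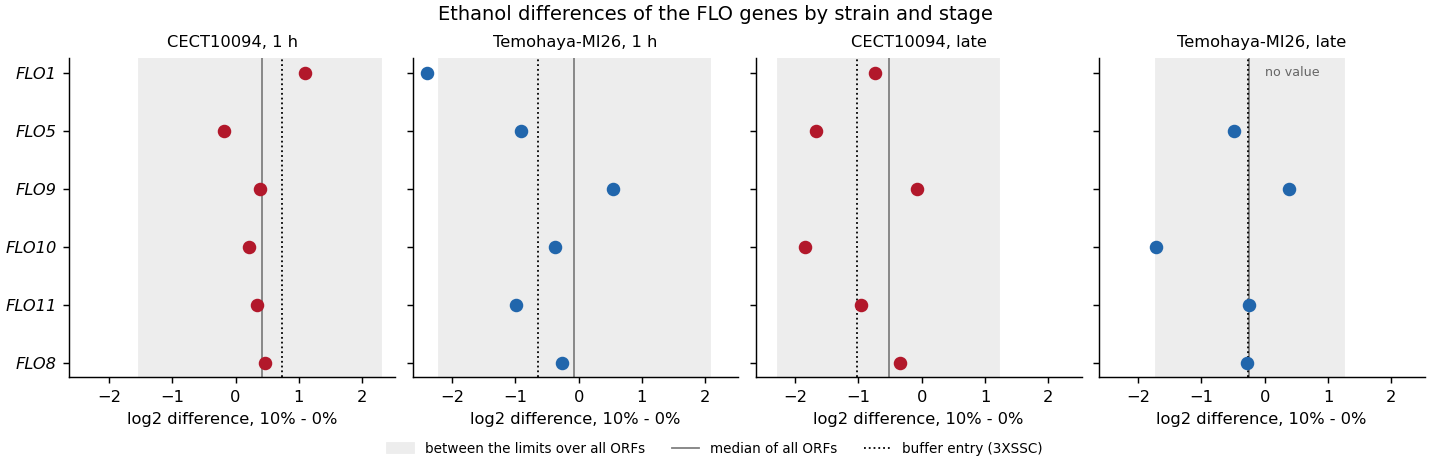
Difference of log2 ratios, 10% minus 0% ethanol (horizontal axis), for the 6 FLO genes (rows) in each strain and stage (panels). Each point is 1 difference of 2 columns, the grey band lies between the limits over all ORFs, the solid line is the median of all ORFs and the dotted line the buffer spot. FLO1 after 1 h (-2.39) and FLO10 late (-1.73), both in Temohaya-MI26, lie left of the band.

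FLO11, the flor and filamentation adhesin, followed the same signs as FLO1 after 1 h at a smaller size. Its ratio in CECT10094 was 0.13 with 10% ethanol and -0.20 with 0% ethanol. In Temohaya-MI26 it was -0.61 with 10% ethanol and 0.38 with 0% ethanol. In the values as deposited, the order of the ethanol levels therefore differed between strains for FLO11 as well, by 0.34 in CECT10094 against -0.99 in Temohaya-MI26. Relative to the buffer spot, its ethanol difference was -0.405 in CECT10094 and -0.355 in Temohaya-MI26. Relative to the median of all ORFs it was -0.089 and -0.913, so on neither scale did the signs differ between strains. With 1 column per condition a difference between strains could not be tested.

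A response common to both strains was tested with limma, a linear model fitted to all ORFs, with the 8 columns as data and each strain and stage as a block. The only repeat of a comparison in that model is the other strain, and 2 residual degrees of freedom remain, so variation between cultures is not measured by its p. A gene was called at an adjusted p (Benjamini and Hochberg over all genes tested) under 0.05. After 1 h, of 5905 genes tested 10.8% were called higher and 7.1% lower with ethanol. None of FLO5, FLO9, FLO10, FLO11 and FLO8 was called, and FLO1 is given no test. FLO5 changed by -0.55 ± 0.40 (log2, SE, limma adjusted p = 0.39), FLO9 by 0.47 ± 0.35 (0.405) and FLO10 by -0.08 ± 0.35 (0.923). FLO11 changed by -0.33 with an interval of -1.22 to 0.56 (95%, limma), and FLO8 by 0.10 with an interval of -0.69 to 0.88. Changes of 0.5 in either direction lie within both intervals, so these values do not show that FLO11 and FLO8 stayed level.

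FLO10, a flocculin less similar to FLO1, had the highest late ratios of the members without ethanol. Its ratio in CECT10094 was -0.26 with 10% ethanol and 1.58 with 0% ethanol. In Temohaya-MI26 it was 0.29 with 10% ethanol and 2.01 with 0% ethanol. Both late columns without ethanol lay above the other 6 columns of the gene, which ran from -0.35 to 0.36. The share of all ORFs with such a separation was not counted. In these late columns without ethanol the median of all ORFs was 0.317 in CECT10094 and 0.225 in Temohaya-MI26. The buffer spot had 0.618 in CECT10094 and 0.484 in Temohaya-MI26. In late 0% ethanol, FLO10 exceeded 93.7% of ORFs in CECT10094 and 97.2% in Temohaya-MI26. The Arabidopsis control was also high there in Temohaya-MI26, with 0.21 with 10% ethanol and 1.958 with 0% ethanol (above 96.8% of ORFs), and had -0.59 with 10% ethanol and 0.47 with 0% ethanol in CECT10094. Its part in the FLO10 values was not tested.

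The late ethanol difference of FLO10 was -1.84 in CECT10094 and -1.73 in Temohaya-MI26. It passed the lower limit in Temohaya-MI26 (-1.71, passed by 2.51% of ORFs, with 3.04% past the upper limit) and not in CECT10094 (-2.27, passed by 2.85%, with 2.76% past the upper limit). In the limma fit FLO10 fell by 1.78 ± 0.36 (SE, adjusted p = 0.0166) with ethanol, and was the only member called late, where 7.6% of 5893 genes were called lower and 0.899% higher. The call was lost when the columns were made equal in distribution by quantile normalization (-1.03, limma adjusted p = 0.178) and when values were taken relative to the buffer spot (-1.14, limma adjusted p = 0.28). The neighbours of FLO10 on both sides, SIR1, a silencing gene, and NFT1, a transporter gene, had smaller late ethanol differences. In CECT10094 SIR1 had -0.14, and in Temohaya-MI26 -0.45, while NFT1 had -0.77 in CECT10094 and -0.36 in Temohaya-MI26.

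FLO5 was also high in late 0% ethanol, and more so in CECT10094. It had -0.20 with 10% ethanol and 1.47 with 0% ethanol in CECT10094. In Temohaya-MI26 it had 0.35 with 10% ethanol and 0.84 with 0% ethanol. The difference was -1.67 in CECT10094 and -0.49 in Temohaya-MI26, and the change common to both, -1.08 ± 0.40, did not pass (limma adjusted p = 0.11). FLO9 had no such difference in either strain, with 0.42 with 10% ethanol and 0.49 with 0% ethanol in CECT10094, and 0.36 with 10% ethanol and -0.03 with 0% ethanol in Temohaya-MI26. With 10% ethanol late in CECT10094, FLO9 exceeded 95% of the ORFs in that column at a ratio of 0.42.

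FLO11 late had -0.20 with 10% ethanol and 0.76 with 0% ethanol in CECT10094, and -0.11 with 10% ethanol and 0.15 with 0% ethanol in Temohaya-MI26. Its late differences, -0.96 in CECT10094 and -0.26 in Temohaya-MI26, were within 0.1 of those of the buffer spot, -1.02 and -0.26. The common change of FLO11 was -0.61 (limma interval -1.50 to 0.28, adjusted p = 0.366). For FLO8 it was -0.31 (limma interval -1.09 to 0.48, adjusted p = 0.621) and for FLO9 0.15 ± 0.35 (limma adjusted p = 0.812). The medians of the late ethanol differences of all ORFs were -0.51 in CECT10094 and -0.25 in Temohaya-MI26, below 0 like most values of the members.

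FLO8, the regulator, varied least. In CECT10094 it had 0.29 with 10% ethanol and -0.18 with 0% ethanol after 1 h, and -0.12 with 10% ethanol and 0.22 with 0% ethanol late. In Temohaya-MI26 it had -0.29 with 10% ethanol and -0.02 with 0% ethanol after 1 h, and -0.25 with 10% ethanol and 0.03 with 0% ethanol late. Its 8 ratios thus spanned 0.58, and 2.67% of the 5359 ORFs with values in every column spanned less. The ranges of the other members were 2.36 for FLO10, 2.15 for FLO5, 1.47 for FLO9 and 1.37 for FLO11, beside a median of 1.46 over those ORFs, and FLO1 spanned 2.39 over its 6 columns. Over the 8 columns the buffer spot, which is no gene, ran from -0.59 to 0.62, and the Arabidopsis control from -0.67 to 1.958. A range of ratios to a pool is therefore no measure of the transcript level alone, and none of the activity of the protein.

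The time courses of the 2 media were compared within strains. With 0% ethanol, where late means 10 h, the difference late minus 1 h was positive for all 6 members in CECT10094, by 0.39 (FLO8) to 1.44 (FLO10), beside a median of 0.58 over all ORFs and 1.21 for the buffer spot. In Temohaya-MI26 the 5 measured members had 1.99 (FLO10), 0.94 (FLO9), 0.60 (FLO5), 0.05 (FLO8) and -0.24 (FLO11), beside a median of 0.43 and 0.33 for the buffer spot. With 10% ethanol, where late means 28 h in CECT10094, FLO9 had 0.71 and the other 5 members -0.21 to -0.87, beside a median of -0.32. In Temohaya-MI26, after 40 h, the 5 measured members had 0.04 (FLO8) to 1.02 (FLO5), beside a median of 0.23. No member passed the limits in any of these 4 comparisons. With 0% ethanol, 2.89% of ORFs passed upward and 2.86% downward in CECT10094, and 2.57% upward and 3.3% downward in Temohaya-MI26. With 10% ethanol, 3.48% passed upward and 2.34% downward in CECT10094, and 3.12% upward and 2.18% downward in Temohaya-MI26.

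**Figure D4:**
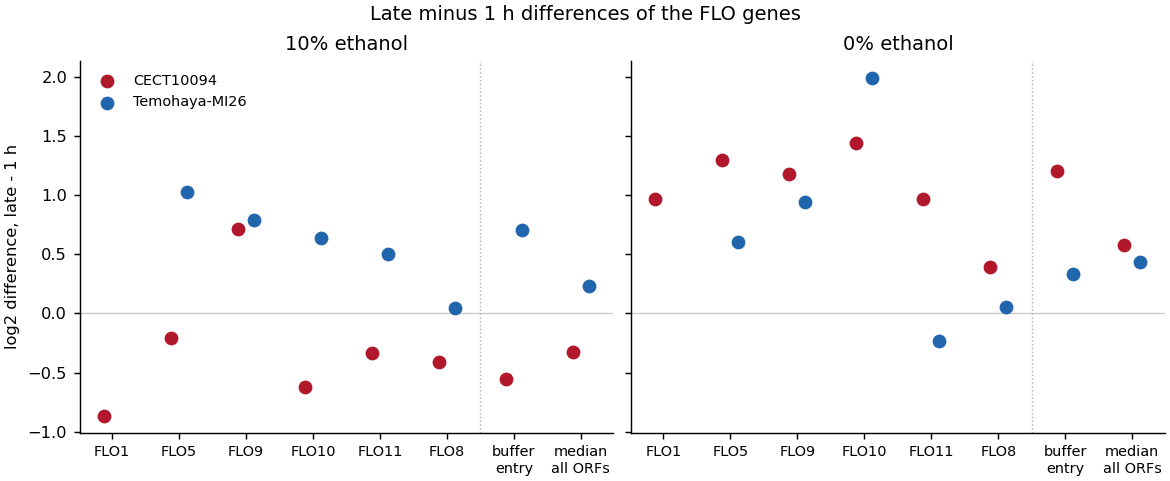
Difference of log2 ratios, late minus 1 h (vertical axis), for the FLO genes, the buffer spot and the median of all ORFs (horizontal axis), with 10% ethanol in the left and 0% ethanol in the right panel. CECT10094 is red and Temohaya-MI26 blue, and each point is 1 difference of 2 columns. FLO10 without ethanol has the highest points, 1.44 in CECT10094 and 1.99 in Temohaya-MI26.

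In the limma fit over stages, FLO10 rose by 1.71 ± 0.40 (SE, adjusted p = 0.0147) and FLO9 by 1.06 ± 0.34 (adjusted p = 0.0438) from 1 h to late without ethanol, where 21.7% of 5831 genes were called higher and 4.82% lower. FLO10 was lost under quantile normalization (0.84, limma adjusted p = 0.199) and relative to the buffer spot (0.94, limma adjusted p = 0.248). FLO9 was lost under both (adjusted p = 0.353 and 0.78 with limma), with columns centred on their medians (0.63, limma adjusted p = 0.157), and relative to the median of its chromosome (0.07, limma adjusted p = 0.9). FLO5 changed by 0.95 ± 0.40 (limma adjusted p = 0.109), FLO11 by 0.36 ± 0.41 (0.533) and FLO8 by 0.22 ± 0.35 (0.661).

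With 10% ethanol no member was called between late and 1 h, where limma called 2.08% of 5860 genes in either direction. FLO9 had the largest change, 0.75 ± 0.34 (limma adjusted p = 0.384), and FLO10 the smallest, 0.01 ± 0.40 (0.998). The late ethanol comparison and the comparison of stages without ethanol share the late 0% columns, so both calls of FLO10 rest on the same high values.

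**Figure D5:**
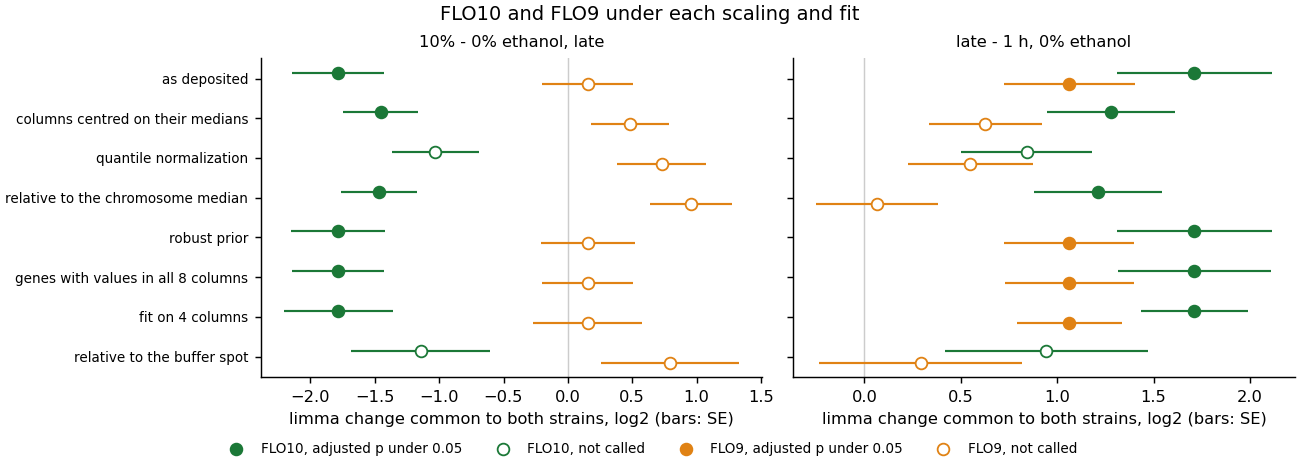
Change common to both strains in limma (horizontal axis, log2, bars are standard errors) for FLO10 (green) and FLO9 (orange), under each scaling or fit (rows), for 10% minus 0% ethanol late (left) and late minus 1 h without ethanol (right). Filled points have an adjusted p under 0.05. FLO10 as deposited has -1.78 and 1.71, and its open points are those for quantile normalization and for values relative to the buffer spot.

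Between the strains late, limma called 0 of 5834 genes, with 282 at an unadjusted p under 0.05, and 0 to 43 under the alternatives. The difference CECT10094 minus Temohaya-MI26 was -0.49 ± 0.35 for FLO10, 0.29 for FLO9, 0.26 for FLO11 (interval -0.63 to 1.15), 0.16 for FLO8 and 0.04 for FLO5, all with an adjusted p of 0.998. By ethanol level, FLO5 had -0.55 with 10% ethanol and 0.63 with 0% ethanol, and FLO11 -0.09 with 10% ethanol and 0.62 with 0% ethanol. The strain gaps of the 5 measured members were within the limits in both late comparisons. With 10% ethanol those limits were passed by 2.32% of ORFs upward and 2.96% downward, and with 0% ethanol by 2.95% upward and 2.47% downward. None of these values bears on FLO1, which had no late value in Temohaya-MI26.

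The members were not uniform among themselves. Across the 8 columns FLO5 correlated with FLO10 (r = 0.87) and FLO11 (r = 0.86), and FLO11 with FLO8 (r = 0.77), while FLO9 had r of 0.13 to 0.40 with the other members measured in all columns and -0.02 with FLO1 over 6 columns. FLO1 had r of 0.86 with FLO11 and 0.79 with FLO8 over those 6. These r describe columns that share a pool, arrays and column-wide shifts. With the buffer spot, r was 0.82 for FLO11, 0.82 for FLO5, 0.80 for FLO10, 0.65 for FLO8, 0.37 for FLO9 and, over 6 columns, 0.77 for FLO1, beside a median of 0.43 over all ORFs.

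The ORFs most like each member by Pearson's r over 8 columns were of other kinds. For FLO5 they were HSH155, a splicing factor gene (r = 0.99), YDR544C (0.99) and TAF5 (0.98). For FLO10 they were TAF2, SPC25 and YCR006C, each with r of 0.99. For FLO9 they were CQD2, ADE1 and HIS5 (0.96 each), for FLO11 MED1 (0.96), YLR463C (0.95) and STE23 (0.94), and for FLO8 LEO1 (0.97), HRK1 (0.96) and GCD10 (0.96). Among 5359 ORFs and over 8 columns high r are common, and no member was among the 3 nearest ORFs of another.

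Regulators of flocculins were followed as lists of known pathway genes. The activators of FLO11 numbered 9 with FLO8, and limma called 1 higher and 0 lower with ethanol after 1 h, near the shares of all genes (10.8% higher and 7.1% lower). That gene was PHD1, a transcription factor of filamentous growth, which rose by 1.30 ± 0.36 (limma adjusted p = 0.0297), with ratios of 0.98 and 0.75 with 10% ethanol against -0.71 and -0.17 with 0% ethanol in CECT10094 and Temohaya-MI26. The call was lost relative to the buffer spot. The median ethanol difference of the activators was 0.52 in CECT10094 and 0.47 in Temohaya-MI26, beside 0.42 and -0.08 for all ORFs. MSS11, which encodes the partner of the FLO8 product, had 0.31 in CECT10094 and -0.42 in Temohaya-MI26.

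Late, 0 activators were called higher and 1 lower with ethanol, beside 0.899% and 7.6% of all genes. STE12, the transcription factor of the mating and filamentation pathways, fell by 1.32 ± 0.36 (limma adjusted p = 0.0427), a call kept under 3 of 7 alternatives. Without ethanol from 1 h to late, STE12 rose by 1.55, TEC1, its partner in filamentation, by 1.32 and MSS11 by 1.22, and no activator was called lower. Among all genes, 21.7% were called higher there, against 3 of 9 activators, and those of TEC1 and MSS11 were kept under 3 of 7 alternatives and that of STE12 under 5.

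Of the 8 repressors of FLO11, 1 was called higher after 1 h and none lower, again near the shares of all genes (10.8% and 7.1%). NRG1, a repressor of glucose-repressed genes, rose by 1.23 ± 0.35 (limma adjusted p = 0.03), by 1.11 in CECT10094 and 1.36 in Temohaya-MI26, a call lost under quantile normalization and relative to the buffer spot. Late, and between stages, 0 of 8 were called. SFL1, which encodes a repressor that opposes the FLO8 product, had ethanol differences after 1 h of 1.03 in CECT10094 and 0.15 in Temohaya-MI26. TUP1 and CYC8, whose products form the general corepressor that silences FLO1, had small values after 1 h: TUP1 -0.26 in CECT10094 and -0.42 in Temohaya-MI26, and CYC8 -0.10 in CECT10094 and 0.01 in Temohaya-MI26.

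The 7 genes of the filamentation MAPK pathway, which signals to STE12 and TEC1, gave no call after 1 h. Late, 1 was lower with ethanol, MSB2, which encodes the signalling mucin at the head of the pathway, and it fell by 1.65 ± 0.42 (limma adjusted p = 0.0345), beside 7.6% of all genes called lower. MSB2 had -0.07 and 0.72 with 10% ethanol against 2.13 and 1.82 with 0% ethanol in CECT10094 and Temohaya-MI26. Its call was lost under quantile normalization, relative to the buffer spot and with centred columns. Without ethanol from 1 h to late, MSB2 (1.81) and the adaptor gene STE50 (1.49) rose, beside 21.7% of all genes. Both were lost under quantile normalization and relative to the buffer spot, and STE50 also relative to the chromosome median.

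The cyclic AMP and protein kinase A inputs, which act on FLO8, held more calls. Of 14 tested after 1 h, limma called 5 higher and 1 lower with ethanol, beside 10.8% and 7.1% of all genes. CYR1, which encodes adenylate cyclase, rose by 3.38 ± 0.39 (adjusted p = 0.000356, limma). Its ratios after 1 h were 1.13 and -0.41 with 10% ethanol against -2.08 and -3.95 with 0% ethanol in CECT10094 and Temohaya-MI26. TPK2, which encodes the kinase subunit that acts on the FLO8 product, rose by 1.44 ± 0.36 (limma adjusted p = 0.0181). GPA2, a G protein gene (1.37), and BCY1, the regulatory subunit gene (1.37), were also higher. IRA2, which encodes a brake on Ras, fell by 1.87 ± 0.42 (limma adjusted p = 0.0103). CYR1 and IRA2 were called under all 7 alternatives, and TPK2, GPA2 and BCY1 were lost under quantile normalization and relative to the buffer spot. FLO8 itself was not called in the same comparison.

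Late, 0 of the 14 were called higher and 3 lower with ethanol, beside 0.899% and 7.6% of all genes. IRA1, the relative of IRA2, fell by 2.79 ± 0.37 (limma adjusted p = 0.00361), with -0.22 and 0.17 with 10% ethanol against 2.68 and 2.86 with 0% ethanol in CECT10094 and Temohaya-MI26, a call kept under all 7 alternatives. MEP2, an ammonium sensor of filamentous growth, fell by 2.19 and CYR1 by 1.72, both lost under quantile normalization and relative to the buffer spot, and CYR1 also relative to the chromosome median. Without ethanol from 1 h to late, CYR1 rose by 5.18 ± 0.51 (limma adjusted p = 0.00122), and IRA1, MEP2, BCY1 and GPA2 by 1.40 to 2.97, where MEP2 had a difference in 1 strain only. Among these 5, only CYR1 kept its call under all alternatives, and the others were lost at least under quantile normalization. IRA1 had high ratios in late 0% ethanol in both strains, like FLO10, but such a pattern is not particular to these 2 genes. From 1 h to late without ethanol, limma called 21.7% of 5831 genes higher.

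The other GPI-anchored adhesins on a list, the mating agglutinins AGA1 and SAG1 and the mating adhesin FIG2, gave no call by limma in any comparison. In Temohaya-MI26 after 1 h their ethanol differences were -1.07 (AGA1), -1.04 (SAG1) and -1.0 (FIG2), near the -0.99 of FLO11 and -0.92 of FLO5. Such values are common there, since 15.2% of all ORFs lay below FLO11 and 16.8% below FLO5, and the buffer spot had -0.64. In CECT10094 AGA1, SAG1 and FIG2 had 1.46, -0.46 and 0.20. None of these 6 differences passed the limits. The strain gap of AGA1 with 0% ethanol after 1 h, -1.10, lay just past the lower limit of -1.08.

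Among mating-type and haploid genes, which tell haploid from diploid cells, limma called 1 of 7 higher and 1 lower with ethanol after 1 h, beside 10.8% and 7.1% of all genes. They were STE3 (1.24, limma adjusted p = 0.0474) and MF(ALPHA)2 (-2.61, limma adjusted p = 0.00121). The call of MF(ALPHA)2 was kept under all 7 alternatives and that of STE3 under 4. STE3 was lower late with ethanol (-1.82, limma adjusted p = 0.0201), lost under quantile normalization and relative to the buffer spot. It was higher late than after 1 h without ethanol (3.01, limma adjusted p = 0.0028), lost under quantile normalization, and MF(ALPHA)2 was higher late than after 1 h with 10% ethanol (1.97). FLO11 is known to be expressed differently in haploid and diploid cells, and the ploidy of these cultures was not analysed here.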

How the data were processed

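Gene expression was measured on the Yeast 6.4 K spotted cDNA array in 8 conditions of both strains. The deposited values are log2 ratios of Cy5 (sample) to Cy3 (pool). Per the methods of the study, the authors removed background globally (GenePix Pro 6.0), normalized ratios (Acuity 4.0) and took the median of 3 slides, with at least 2 required. Such medians leave both depth and error unknown. A second deposited table with the authors' own differences between ethanol levels was not used. Gene names follow RefSeq by locus tag (5653 of 6152 ORFs matched), and the build behind the array is not given in the sources used here.

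Values were used as deposited. All ORFs were fitted in limma 3.58.1 (R 4.3.3) on all 8 columns. The blocks were each strain and stage (ethanol), each strain and ethanol level (stage), or each stage and ethanol level (strain). Of the strain fit only the late term is reported. Genes with 1 residual degree of freedom or more were tested. Buffer and Arabidopsis control spots were left out of the fits. Alternatives were columns centred on their medians, quantile normalization, values relative to the chromosome median, a robust prior, genes with values in all 8 columns, fits on 4 columns, and other limits (median and MAD, or a fixed difference of 1). Values relative to the buffer spot were added after seeing the data. The fits were tested on simulated data with 200 of 5359 ORFs changed after 1 h in both strains. There limma recovered 12% of log2 changes of 1 and 92% of changes of 2. A missing call for a change of 1 or less therefore does not show that a gene stayed level.

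The members and the 7 lists were chosen with earlier results of these data known. Named genes were the members, up to 4 called genes per list and comparison, the 3 ORFs most like each member, and the nearest measured ORF on each side. SFL1, MSS11, TUP1, CYC8, AGA1, SAG1, FIG2, the remnants and further called genes of the cyclic AMP list were named outside that rule, with their values known. A called gene of the lists is not reported here.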

Additional observations from a re-analysis of the deposited data

Results flagged for a closer look

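The ethanol difference of FLO1 after 1 h (10% minus 0%) ran in opposite directions in the strains, 1.10 in CECT10094 and -2.39 in Temohaya-MI26 on the log2 scale. Each rests on 1 pair of columns, the difference between strains was not tested, and FLO1 was chosen for the same 4 values. The value in CECT10094 lay within the limits over all ORFs. The buffer spot differed by 0.74 in CECT10094 and -0.64 in Temohaya-MI26, and the medians of all ORFs were 0.42 and -0.08. The Arabidopsis control in CECT10094 had 0.52 with 10% ethanol and -0.67 with 0% ethanol, near the values of FLO1. The part of such shifts was not tested.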

How the results depend on the processing

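Of the values of the members under the alternatives, 483 kept their side of the threshold, and in the limma fits also their direction. Direction turned in 15 limma values, and 9 single differences moved across a limit. The counts include values of FLO1 after 1 h, for which it was chosen, so they are no support for its difference. Direction was not checked for single differences within the limits. In the limma fits 8 values lost a call and 1 gained one, FLO5 between stages without ethanol in the fit on 4 columns (limma adjusted p = 0.00953). The counts of genes called by limma moved as follows. For ethanol after 1 h, 1057 were called, and 661 relative to the buffer spot. For ethanol late, 501 were called, against 60 with quantile normalization, 309 relative to the chromosome median, 754 in the fit on 4 columns and 168 relative to the buffer spot. Between strains late, 0 were called, against 11 with a robust prior, 1 with genes measured in all columns, 43 in the fit on 4 columns and 6 relative to the buffer spot. Between stages without ethanol, 1549 were called, against 79 with quantile normalization, 2819 in the fit on 4 columns and 758 relative to the buffer spot. The share called higher was 60.4% for ethanol after 1 h, 10.6% late and 81.9% between stages without ethanol. It was 48.9, 33.2 and 55.9% with centred columns, 44, 55 and 26.6% with quantile normalization, 48.8, 37.5 and 54.4% relative to the chromosome median, and 54.2, 72.6 and 26.9% relative to the buffer spot.

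Of the members' single differences, 2 lay past the ethanol limits, but 1 with quantile normalization and 5 with a fixed limit of 1 (of FLO1, FLO5 and FLO10), and 0 past the stage limits, but 5 with a fixed limit of 1 (of FLO5, FLO9 and FLO10). In the limma fits, directions turned for small changes. FLO8 after 1 h was -0.044 with centred columns and -0.032 with quantile normalization. Late with ethanol it was 0.022 with centred columns, 0.03 relative to the chromosome median and 0.33 relative to the buffer spot, where FLO11 was 0.03. Between stages without ethanol, with centred columns, quantile normalization, the chromosome median and the buffer spot in that order, FLO11 was -0.071, -0.10, -0.27 and -0.41 and FLO8 -0.21, -0.17, -0.18 and -0.55. With 10% ethanol FLO10 was -0.072 relative to the buffer spot. The cause was not tested.

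No paired analysis was possible because the columns carry no replicate numbers and hold 1 median per condition, so replicates were not paired, and the blocks of the fits were strains, stages and ethanol levels. For the same reason leaving out a replicate was not run. The authors' difference table, listed as an alternative, was not run because it holds their own comparisons.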

Other observations

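The 3 ORFs described next lie near flocculin genes and were singled out after their values were seen. Late, their ethanol differences were larger in size than that of any member in both strains. YAR066W, on the same end of chromosome I as FLO1, differed between ethanol levels (10% minus 0%) after 1 h by -0.96 in CECT10094 and -4.11 in Temohaya-MI26. Late, it differed by -3.15 in CECT10094 and -4.49 in Temohaya-MI26. YHR214W, on the same end of chromosome VIII as FLO5, had -1.46 and -4.24 after 1 h and -3.73 and -4.76 late in CECT10094 and Temohaya-MI26, with 0.0182% of all ORFs below it in the last of these. The sequences of YAR066W and YHR214W are closely related, and whether their spots bound the same cDNA was not tested. YHR214W-A, on that end of chromosome VIII too, had -2.70 and -1.20 after 1 h and -4.56 and -3.38 late in CECT10094 and Temohaya-MI26.

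GDH3, the glutamate dehydrogenase gene next to FLO9, had a late ratio in Temohaya-MI26 of -0.10 with 10% ethanol and 2.62 with 0% ethanol, while FLO9 had 0.36 and -0.03 in the same columns. KAP123, an importin gene next to FLO8, had -1.0 with 10% ethanol and 0.64 with 0% ethanol after 1 h in Temohaya-MI26, a difference of -1.64, beside -0.27 for FLO8. In CECT10094 the difference of KAP123 was -0.12. YAP5, a transcription factor gene near FLO11, had ethanol differences after 1 h of 1.28 in CECT10094 and 1.43 in Temohaya-MI26, beside 0.34 and -0.99 for FLO11.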
